A study of Homo sapiens with 2 samples.

Results

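Open chromatin peaks at paired gene ends were taken from 2 ATAC-seq libraries, a method in which the Tn5 transposase cuts accessible DNA. A peak was counted as lying at a paired end when an annotated end of 2 or more different protein-coding RefSeq genes fell within 1 kb of it, on chromosomes 1 to 22 and X. This gave 442 of the 4262 peaks on these chromosomes, 194 of 1935 in the control library and 248 of 2327 in the knockdown library. Both libraries came from C4-2, a castration-resistant prostate cancer cell line derived from LNCaP, grown in RPMI with 10% FBS. The control carried a control shRNA and is called NSD2 wild type in the deposited files, and the other library carried an shRNA against WHSC1, also named NSD2, which encodes a histone H3 lysine 36 methyltransferase. There was 1 library per group, so no difference between the libraries has a replicate check and none was tested. Intervals given for shares are exact Clopper-Pearson 95% intervals, which cover counting error alone.

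Many human genes are arranged head to head, so that their transcription starts lie close together on opposite strands and a single stretch of open DNA serves both. Such bidirectional promoters are typically rich in CpG, usually have no TATA box, and are known for housekeeping genes of DNA repair, mitochondria, translation and the cell cycle. Protein-coding genes can also meet tail to tail (convergent), head to tail (tandem), or start at the same place on the same strand, as a gene and its readthrough locus do.

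Of the 330 gene pairs at these peaks, 8 divergent pairs show the kinds of promoter found there and are printed from RefSeq (GRCh38.p14), each as the 300 bases around the start of the second-named gene, on the plus strand, 5′ to 3′. The capitals mark the bases from one annotated start to the other, both included. The first 4 pairs had a peak in both libraries, TCP1/MRPL18 and NDUFS1/EEF1B2 in the control alone, and SASS6/TRMT13 and H2BC4/H2AC6 in the knockdown alone. They are HSPD1/HSPE1 (chr2:197500129-197500428), the mitochondrial chaperonin and its cochaperonin, GIN1/PPIP5K2 (chr5:103120051-103120350), HARS1/HARS2 (chr5:140691205-140691504), the cytosolic and mitochondrial histidyl-tRNA synthetases, and ERAP1/LNPEP (chr5:96935830-96936129), both aminopeptidases. The others are TCP1/MRPL18 (chr6:159789562-159789861), NDUFS1/EEF1B2 (chr2:206159359-206159658), SASS6/TRMT13 (chr1:100132913-100133212) and H2BC4/H2AC6 (chr6:26123922-26124221), a pair of core histone genes.
HSPD1/HSPE1: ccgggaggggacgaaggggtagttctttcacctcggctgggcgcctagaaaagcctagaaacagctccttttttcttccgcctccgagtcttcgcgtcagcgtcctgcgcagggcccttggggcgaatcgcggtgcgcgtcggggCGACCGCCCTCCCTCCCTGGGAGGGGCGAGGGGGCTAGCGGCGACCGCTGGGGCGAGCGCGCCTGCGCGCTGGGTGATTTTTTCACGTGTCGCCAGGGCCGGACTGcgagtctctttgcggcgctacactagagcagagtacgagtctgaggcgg
GIN1/PPIP5K2: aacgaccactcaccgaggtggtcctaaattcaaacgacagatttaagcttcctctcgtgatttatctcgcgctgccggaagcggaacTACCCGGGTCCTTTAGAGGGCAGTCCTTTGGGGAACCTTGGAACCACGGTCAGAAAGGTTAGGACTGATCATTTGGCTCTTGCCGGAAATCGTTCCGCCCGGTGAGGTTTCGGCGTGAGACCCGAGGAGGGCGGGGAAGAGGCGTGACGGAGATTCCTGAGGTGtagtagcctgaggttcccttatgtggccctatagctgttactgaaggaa
HARS1/HARS2: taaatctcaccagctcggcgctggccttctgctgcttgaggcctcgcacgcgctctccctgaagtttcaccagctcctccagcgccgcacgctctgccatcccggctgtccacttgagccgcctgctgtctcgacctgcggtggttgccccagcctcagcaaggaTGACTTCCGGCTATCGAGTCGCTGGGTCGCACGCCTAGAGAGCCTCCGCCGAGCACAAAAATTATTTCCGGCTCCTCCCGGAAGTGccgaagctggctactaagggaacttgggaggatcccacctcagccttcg
ERAP1/LNPEP: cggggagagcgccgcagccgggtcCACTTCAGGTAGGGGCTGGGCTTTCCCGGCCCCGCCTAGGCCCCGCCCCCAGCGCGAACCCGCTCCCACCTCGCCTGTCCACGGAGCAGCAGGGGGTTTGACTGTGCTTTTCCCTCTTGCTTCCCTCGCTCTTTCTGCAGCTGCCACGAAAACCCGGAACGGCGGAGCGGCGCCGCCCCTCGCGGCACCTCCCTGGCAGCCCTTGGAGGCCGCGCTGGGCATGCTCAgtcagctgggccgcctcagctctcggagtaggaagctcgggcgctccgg
TCP1/MRPL18: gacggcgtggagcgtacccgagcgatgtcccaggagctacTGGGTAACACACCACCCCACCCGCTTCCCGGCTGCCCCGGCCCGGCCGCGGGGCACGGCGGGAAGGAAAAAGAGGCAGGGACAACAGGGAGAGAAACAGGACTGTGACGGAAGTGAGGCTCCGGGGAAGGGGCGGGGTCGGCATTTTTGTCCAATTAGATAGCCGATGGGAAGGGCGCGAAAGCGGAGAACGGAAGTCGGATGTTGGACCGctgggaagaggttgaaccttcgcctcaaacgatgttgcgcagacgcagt
NDUFS1/EEF1B2: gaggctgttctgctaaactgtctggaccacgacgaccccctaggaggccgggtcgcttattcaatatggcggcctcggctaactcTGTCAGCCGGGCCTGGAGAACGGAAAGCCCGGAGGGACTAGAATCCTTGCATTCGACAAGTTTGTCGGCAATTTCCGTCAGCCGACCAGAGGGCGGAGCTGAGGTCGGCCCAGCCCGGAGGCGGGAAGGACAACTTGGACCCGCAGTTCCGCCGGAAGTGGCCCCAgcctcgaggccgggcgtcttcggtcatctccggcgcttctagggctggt
SASS6/TRMT13: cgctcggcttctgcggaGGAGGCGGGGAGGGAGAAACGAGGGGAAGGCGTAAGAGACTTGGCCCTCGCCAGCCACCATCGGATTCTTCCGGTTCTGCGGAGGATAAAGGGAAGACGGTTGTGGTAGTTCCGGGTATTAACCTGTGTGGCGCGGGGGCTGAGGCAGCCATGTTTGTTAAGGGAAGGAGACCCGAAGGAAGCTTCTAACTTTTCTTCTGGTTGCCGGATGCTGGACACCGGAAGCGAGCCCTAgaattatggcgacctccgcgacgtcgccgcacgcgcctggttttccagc
H2BC4/H2AC6: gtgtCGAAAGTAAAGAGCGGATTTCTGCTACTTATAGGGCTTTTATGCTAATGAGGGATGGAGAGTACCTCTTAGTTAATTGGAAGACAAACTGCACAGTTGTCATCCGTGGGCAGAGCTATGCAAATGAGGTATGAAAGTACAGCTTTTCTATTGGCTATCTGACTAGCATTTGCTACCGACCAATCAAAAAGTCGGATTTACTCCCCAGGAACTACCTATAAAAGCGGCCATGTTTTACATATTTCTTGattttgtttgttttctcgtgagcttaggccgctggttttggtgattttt
In HSPD1/HSPE1 the capitals span 106 bases, and they hold the E-box CACGTG. In HARS1/HARS2 they span 86 bases and hold the ETS letters CCGGAAG. SASS6/TRMT13 (234 bases between the starts), NDUFS1/EEF1B2 (166) and GIN1/PPIP5K2 (164) hold the same ETS letters in their windows. The windows of ERAP1/LNPEP (227) and TCP1/MRPL18 (211) hold the SP/KLF letters GGGCGG, as do those of HSPD1/HSPE1, GIN1/PPIP5K2 and NDUFS1/EEF1B2. The H2BC4/H2AC6 window (247 bases between the starts) differs from the other 7 in holding the TATA box letters TATAAA, and it has 41.0% G and C against 54.7% to 71.3% in the others. These matches describe letters and not bound sites.

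The peaks lay differently over these promoters. At HSPD1/HSPE1 the control peak (chr2:197499926-197500326) held the annotated start of HSPD1 and ended before that of HSPE1, and the knockdown peak (chr2:197499895-197500387) held both. At HARS1/HARS2 the control peak (chr5:140691473-140691777) lay outside the stretch between the starts, within HARS2, while the knockdown peak (chr5:140691351-140691618) held both starts. At GIN1/PPIP5K2 both starts were inside the peak in each library. The NDUFS1/EEF1B2 peak (chr2:206159444-206159700) began at the annotated start of NDUFS1, and the SASS6/TRMT13 peak (chr1:100132703-100133316) covered both starts with room on either side.

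Across all 442 peaks, 188 control peaks lay at ends of 2 genes and 6 at ends of 3, against 238, 9 and 1 with 4 genes in the knockdown. Paired-end peaks made up 10.0% (8.72 to 11.5) of the control list and 10.7% (9.43 to 12) of the knockdown list. They involved 621 protein-coding genes, 3.11% of the 19974 on these chromosomes, with 1.97% at a control peak and 2.53% at a knockdown peak. Peaks near several genes included CAB39L, SETDB2 and SETDB2-PHF11, and HSPD1, HSPE1 and HSPE1-MOB4, where the third locus is a readthrough that shares a start. TRIM23, SHLD3 and TRAPPC13 shared a knockdown peak of fold 3.85, and WBP11, C12orf60 and SMCO3 another of fold 4.09. The peak with 4 genes lay near MKKS, SLX4IP and 2 LOC symbols, with none of their ends inside it. Without symbols that join 2 gene names, which mark readthrough loci, 188 control and 241 knockdown peaks were left, an alternative added after the data were seen.

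The files give no read counts, so the depth of either library is unknown. As a look at the labelled tissue, 2 of 10 luminal prostate markers, ACP3 and STEAP2, had a peak within 1 kb in each library, and neither lay at a paired-end peak. KLK3, TMPRSS2 and FOLH1 had none, and a peak list does not measure expression.

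Orientation could be read where both genes have an entry in the RefSeq promoter table, which gives the strand of 15812 of the 19974 genes. Of the 330 pairs, 207 were divergent, 24 shared a 5′ end on the same strand, 17 were tandem and 3 had a start facing a 3′ end on the opposite strand. No pair was convergent, and 79 were undetermined for want of a strand. The table gives no strand on chromosome 8, where 18 control and 17 knockdown paired-end peaks lay, among them the one of highest fold in the control, at NUDCD1/ENY2 (5.39, and 5.07 in the knockdown). Leaving out the undetermined pairs, 86.1% of the control pairs (130 of 151) and 82.3% of the knockdown pairs (172 of 209) were divergent. Of the 24 pairs with a shared 5′ end, 11 were a gene and its readthrough locus, such as RBM27/RBM27-POU4F3 with folds of 4.80 and 4.37. The divergent starts lay a median of 227 bp apart (interquartile range 139.5 to 395.5, maximum 1276), and in 44 of the 207 pairs the 2 gene spans overlapped.

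The same question can be put to every paired end in the annotation, since the peaks did not choose these, as far as strands are given. The 1079 end pairs with no orientation, those of chromosome 8 included, had a peak in 4.54% and 5.28% of cases and enter none of the shares that follow. Of 1096 divergent end pairs at most 1 kb apart, 11.6% (9.75 to 13.6, 127 pairs) had a peak within 1 kb of both starts in the control and 15.0% (12.9 to 17.2, 164 pairs) in the knockdown. Single starts with no other gene end within 3 kb had a peak in 5.42% (5.02 to 5.86) and 6.31% (5.87 to 6.77) of 11393 cases. The intervals of divergent pairs and single starts did not overlap in either library. Ends without a start were nearly empty. In each library 0 of 638 convergent pairs had a peak, where 3 counts would be 0.470% and the exact upper bound is 0.577%. Likewise 0 of 377 pairs with a shared 3′ end had one, where 3 counts would be 0.796% and the exact upper bound is 0.974%. Tandem pairs, a start beside a 3′ end, had a peak in 1.08% and 1.94% of 463 cases, and single 3′ ends in 0.0349% and 0.0785% of 11463. Pairs that share a 5′ end on one strand stood at 10.8% and 15.1% of 139.

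**Figure D1:**
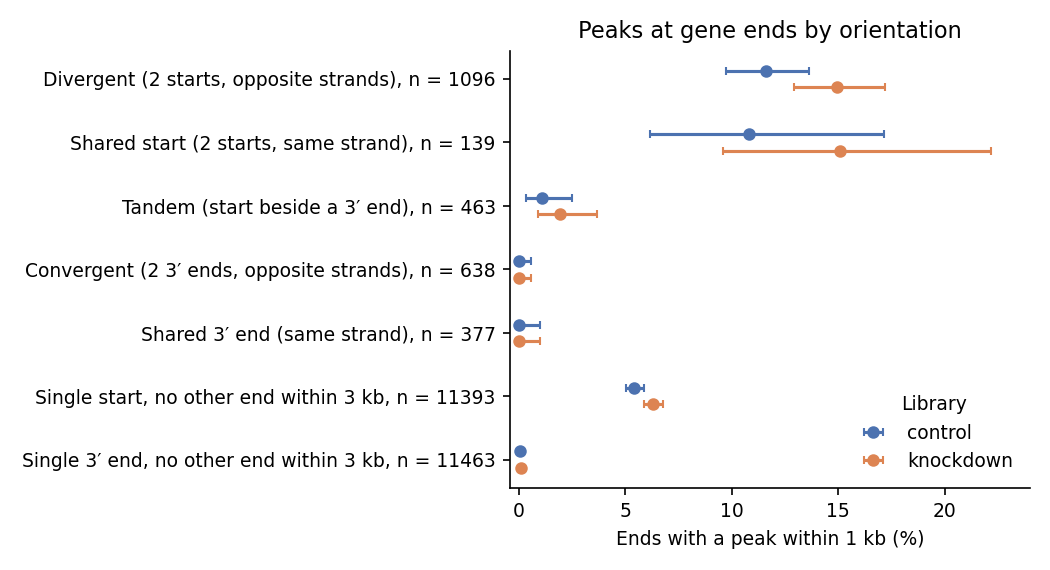
Share of annotated gene ends (%, horizontal axis) with a peak within 1 kb, by orientation of the ends, in the control (blue) and knockdown (orange) library, with exact 95% intervals as bars. Divergent pairs stand at 11.6% and 15.0%, single starts at 5.42% and 6.31%, and convergent pairs at 0.

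Distance between the starts moved with the share of divergent pairs that had a peak. Pairs whose starts were up to 100 bp apart had a peak in 6.09% (control) and 10.4% (knockdown) of 230 cases. The share was 15.1% and 17% of 411 over 100 and up to 250 bp, 12% and 16.8% of 292 over 250 and up to 500 bp, and 9.82% and 12.9% of 163 from there to 1000 bp. In both libraries the highest share was in the class up to 250 bp. Neighbouring classes had overlapping intervals, except the first against the second in the control. Among the 207 divergent pairs with a peak, the part with one in both libraries was 35.7% of 28 in the first class and 45.1% of 91 in the second. It was 55.6% of 54 up to 500 bp, 50% of 24 up to 1000 bp and 20% of the 10 farther apart. The intervals of all these classes overlapped.

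The placement of the peaks over divergent starts was read from the peak edges. Both starts lay inside the peak in 43 of 130 control pairs (33.1%, 25.1 to 41.9) and 68 of 172 knockdown pairs (39.5%, 32.2 to 47.3). One start lay inside in 69 and 76 pairs, and neither in 18 and 28. The midpoint between the starts fell inside the peak in 76.2% (control) and 72.1% (knockdown) of pairs, and the peak centre lay a median of 135 bp and 138 bp from it. Both starts lay inside the peak in 37.9% (28.1 to 48.4) of the 95 control pairs whose peak was found in both libraries. In the other 35 the share was 20% (8.44 to 36.9), with an overlapping interval. In the knockdown these shares were 50% (39.6 to 60.4) and 26.3% (16.9 to 37.7), and the shared peaks were also the wider ones.

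**Figure D2:**
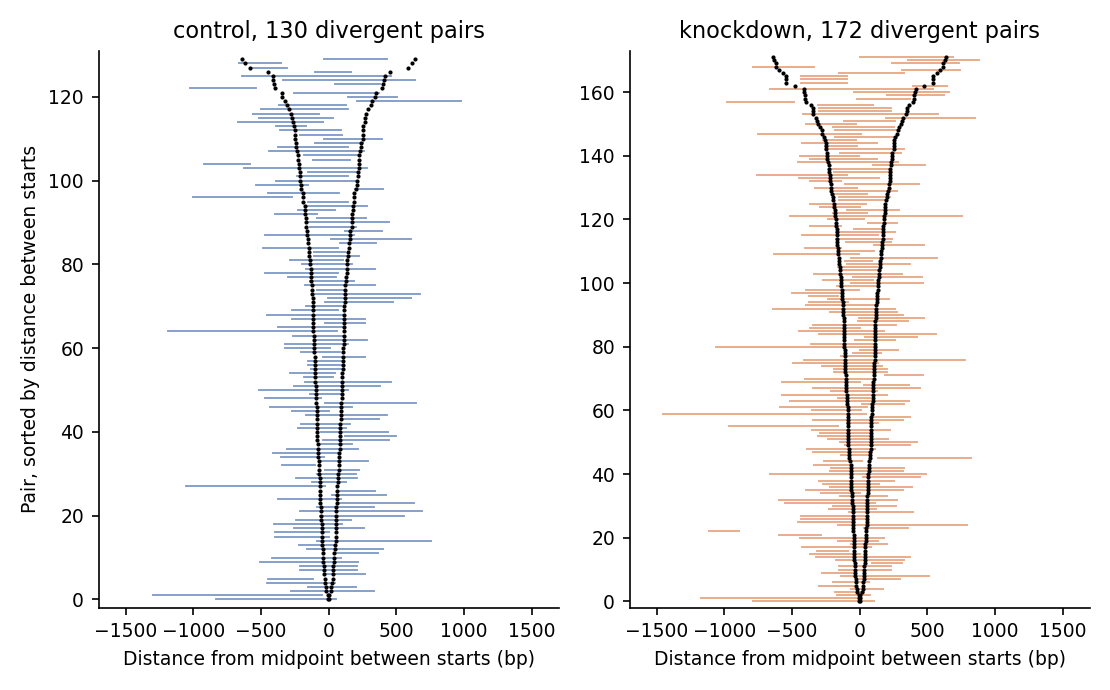
Each horizontal line is the peak of 1 divergent pair, drawn by distance from the midpoint between the 2 starts (bp), and each pair's starts are the black dots. A peak with several divergent pairs is drawn for each of them. Pairs are sorted by the distance between starts, 130 for the control and 172 for the knockdown, and most lines cross the midpoint (76.2% and 72.1%).

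Fold enrichment, the caller's ratio of pileup over local background at a peak, varied little among paired-end peaks. Its median was 3.66 in the control (interquartile range 3.43 to 3.98, range 2.88 to 5.39) and 3.57 in the knockdown (3.30 to 3.91, range 2.87 to 5.45). Peaks at the end of 1 gene had medians of 3.63 and 3.5, and peaks with no gene end within 1 kb 3.54 and 3.40. The paired-end peaks were a median of 411.5 bp wide in the control and 417.5 bp in the knockdown, against 385 bp and 386 bp at 1 gene end and 324 bp and 328 bp away from gene ends. The widest were TAF1D/C11orf54, with 601 bp (control) and 1500 bp (knockdown), DNAJB4/FUBP1, 397 and 1365 bp, and RPL7/RDH10, 1313 and 655 bp. TAF1D is a subunit of the selectivity factor of RNA polymerase I. At the first 2 promoters the knockdown peak was the wider and at RPL7/RDH10 the control peak. The folds were 3.46 and 3.30 at TAF1D/C11orf54 and 3.49 and 3.74 at DNAJB4/FUBP1 and 3.34 and 3.62 at RPL7/RDH10.

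The rule asked for a second gene within 1 kb, and most second genes were far closer. In the control, 65 peaks touched both ends (distance 0), 95 had the second end at 1 to 249 bp, 19 at 250 to 499 bp, 7 at 500 to 749 bp and 8 at 750 to 1000 bp. In the knockdown these numbers were 95, 98, 33, 8 and 14. Peaks touching both ends had a median width of 543 and 559 bp, a class that favours wide peaks by its definition, and folds of 3.60 and 3.68. Just inside the limit, at 750 to 1000 bp, the median fold was 3.72 and 3.34. Just outside it, at up to 1250 bp, 6 control peaks had a median of 3.41 and 9 knockdown peaks one of 3.38.

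Overlap with the other library by 1 bp or more was found for 138 of 194 control peaks (71.1%, 64.2 to 77.4), against 53.2% of all control peaks and 63.5% (60.0 to 66.9) of those at 1 gene end. In the knockdown it was found for 138 of 248 (55.6%, 49.2 to 61.9), against 44.0% of all knockdown peaks and 55.6% (52.3 to 58.8) at 1 gene end. Thus paired-end peaks stood above the whole list in both libraries, and had the same share as single-end peaks in the knockdown. Peaks away from gene ends stood at 41.0% and 32.5%. The overlapping peak of the other library was itself at a paired end in 137 of 138 cases in each direction. Shared control peaks had a median fold of 3.71 and a width of 442 bp, and unshared ones 3.56 and 330 bp. In the knockdown the values were 3.73 and 483.5 bp against 3.43 and 340.5 bp.

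Overlap moved with peak strength, given here as the −log10 q-value of the caller. Among control paired-end peaks, 13 of 21 below 1.5 were overlapped (61.9%), 27 of 55 at 1.5 to 2 (49.1%), 45 of 59 at 2 to 3 (76.3%), 34 of 40 at 3 to 5 (85.0%) and 19 of 19 above that. Among knockdown peaks the shares were 17.6% of 34, 36.7% of 49, 53.6% of 69, 75.3% of 73 and 95.7% of 23. Weak peaks of the longer knockdown list had the lowest shares. The single knockdown peak of at least 5 without a control partner was that of ATP6V1D/EIF2S1. In the control, single-end peaks ran 34.0%, 48.3%, 69.0%, 83.8% and 96.8% over the same classes, close to the paired-end values from 1.5 upward.

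**Figure D3:**
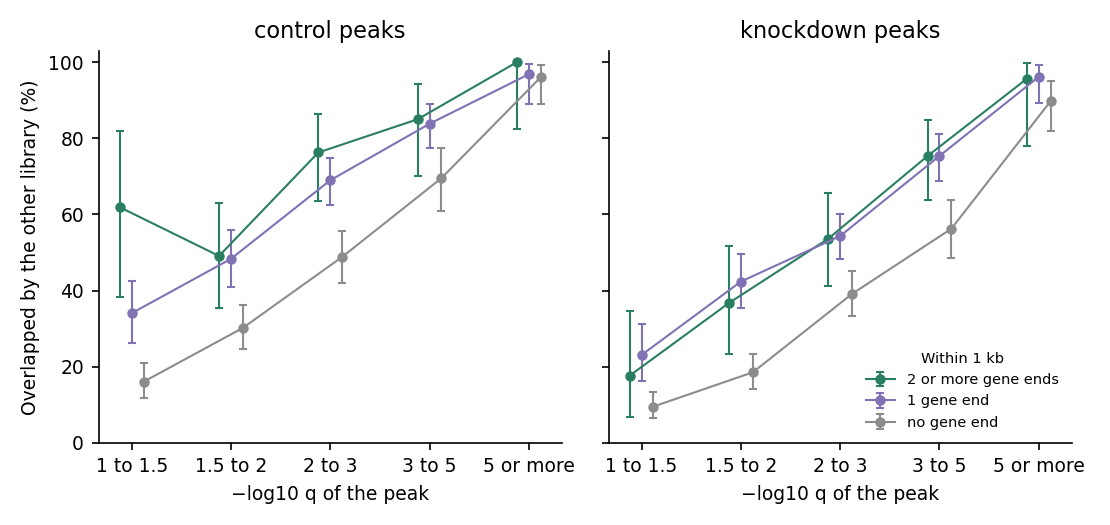
Share of peaks overlapped by a peak of the other library (%, vertical axis) by −log10 q class (horizontal axis) for peaks within 1 kb of 2 or more gene ends, 1 gene end or none, with exact 95% intervals. Paired-end peaks rise from 61.9% to 100% in the control and from 17.6% to 95.7% in the knockdown. Peaks away from gene ends have the lowest share in every class. In each library their intervals overlap those of paired-end peaks in several classes, the highest included.

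By pair, 147 of the 330 had a peak in both libraries, 59 in the control alone and 124 in the knockdown alone. All 147 pairs had overlapping peaks. In 4 of the other pairs, among them SF3B6/TP53I3 and IPMK/CISD1, a peak of the other list did overlap but lay beyond 1 kb of one of the 2 ends. Pairs in both had a median fold of 3.68 (control) and 3.74 (knockdown), against 3.60 for control-only and 3.45 for knockdown-only pairs. The ratio of the knockdown to the control fold over the 147 had a median of 0.988 and ran from 0.766 to 1.47, above 1 in 71 pairs and below it in 76. All shared peaks had a median ratio of 0.982 and shared single-end peaks one of 0.970. The fold of each library is relative to its own background, and no scaling between the libraries was made.

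**Figure D4:**
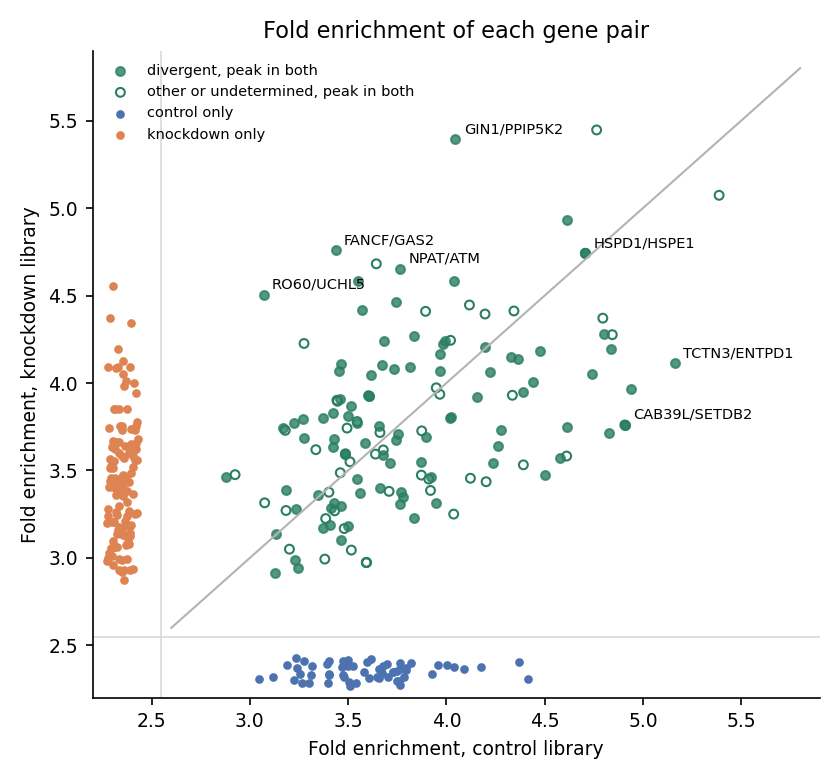
Fold enrichment of each gene pair in the control (horizontal axis) and knockdown library (vertical axis), with the grey diagonal marking equal values. Pairs with a peak in 1 library alone are drawn in the strips along the left (124 knockdown only) and the bottom (59 control only), where the short axis has no value, and the 147 pairs in both lie on either side of the diagonal with ratios from 0.766 to 1.47.

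The strongest divergent promoters found in both libraries were ranked by the mean of both folds, leaving out copies of one family and LOC symbols. Pairs without a strand, such as NUDCD1/ENY2 with the highest control fold, could not enter this ranking. Of the first 10 pairs, CAB39L/SETDB2-PHF11 and HSPD1/HSPE1-MOB4 are readthrough entries at peaks described elsewhere. TPR, the nuclear basket protein of the pore, shares its promoter with ODR4, and its peak had a control fold of 4.61 and a knockdown fold of 4.93. HSPD1/HSPE1 followed with 4.71 and 4.74, at −log10 q-values of 5.88 and 7.71. GIN1/PPIP5K2, whose second gene makes an inositol pyrophosphate kinase, had 4.05 and 5.39. These pairs had nearly equal folds in both libraries at TPR and HSPD1, and a higher one in the knockdown at GIN1. TCTN3, of the ciliary transition zone, and ENTPD1 (CD39), which breaks down extracellular ATP, had 5.16 and 4.11. ERP44, a retention protein of the early secretory pathway, and INVS (inversin) had 4.80 and 4.28. TFB2M, a transcription factor of mitochondrial DNA, and CNST had 4.94 and 3.96. In these 3 the control value was the higher. TMEM60/PHTF2 had 4.84 and 4.19, and THAP5/DNAJB9, the second an endoplasmic reticulum cochaperone, 4.74 and 4.05.

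The largest ratios in either direction came from a few divergent pairs. RO60, an RNA-binding autoantigen, and UCHL5, a deubiquitinase of the proteasome, rested on a peak of fold 3.07 in the control and 4.51 in the knockdown, a ratio of 1.47. FANCF, of the Fanconi anaemia core complex, and GAS2 had 3.44 and 4.76, a ratio of 1.38. At the other end CAB39L/SETDB2, the second a SET domain protein, had 4.91 in the control and 3.76 in the knockdown, a ratio of 0.766. Without replicates the spread of such ratios between libraries of one group is unknown.

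Among pairs listed in 1 library alone, the highest control fold was 4.42 at AMER1/LOC112268307, a gene of Wnt signalling, followed by TCP1/MRPL18 (4.37), RGS5/NUF2 (4.18) and DROSHA/C5orf22 (4.09). The 8 strongest also held NDUFS1/EEF1B2 (4.04), CNGA1/NIPAL1 (4.0), EARS2/UBFD1 (3.96) and SELENOF/HS2ST1 (3.93), the last with an enzyme of heparan sulphate synthesis. In the knockdown alone the highest were ABCE1/ANAPC10 (4.56), FAM227B/DTWD1 (4.37), ATP6V1D/EIF2S1 (4.34), HOMER2/RAMAC (4.19), SASS6/TRMT13 (4.12) and the 3 genes WBP11, C12orf60 and SMCO3 (4.09). EIF2S1 makes part of the factor that brings initiator tRNA to the ribosome, and ATP6V1D acts in acidifying vesicles. All of these lie within the range of folds of pairs found in both libraries, 2.88 to 5.39 in the control and 2.92 to 5.45 in the knockdown.

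Several classic examples of bidirectional promoters were among the members. Of 55 genes on a list of such textbook cases, 15 (27.3%) had a paired-end peak, against 3.11% of all genes, 8 in both libraries, 2 in the control alone and 5 in the knockdown alone. ATM, the kinase of the double-strand break response, shares its promoter with NPAT, a coactivator of histone genes, and its peak had a control fold of 3.77 and a knockdown fold of 4.65. PRKDC, the catalytic subunit of DNA-dependent protein kinase, and MCM4, of the replicative helicase, had a peak in the control alone (3.05). It was a weak peak, with a −log10 q of 1.11 and the lowest fold of the control-only pairs. The genes on this list were picked as bidirectional, and nothing is read from its share.

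Lists of genes by function were read against 2 backgrounds, 3.11% of all genes and 10.4% (593) of the 5710 genes whose end lies within 1 kb of another gene's end. The lists were chosen with earlier results known and none was tested. Of the 621 member genes, 279 were at a peak in both libraries, 115 in the control alone and 227 in the knockdown alone, and each list's split is read beside these numbers. Genes of tRNA charging and modification stood highest, with 21 of 93 (22.6%) at a paired-end peak, 9 in both libraries, 4 in the control alone and 8 in the knockdown alone. Of the 52 with a paired end, 38.5% had one. HARS1/HARS2 had folds of 3.54 and 3.45. CRYZ/TYW3, where TYW3 acts in wybutosine synthesis, had 4.20 and 3.44, and SWT1/TRMT1L 4.61 and 3.75. The lysyl-tRNA synthetase gene KARS1, which shares its promoter with TERF2IP, had a peak in the control alone (3.48), and so did EARS2/UBFD1 (3.96). SLC38A6/TRMT5 (3.68), SLC39A6/ELP2 (3.52) and TRMT10A/MTTP (3.43) had one in the knockdown alone.

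Chaperone genes lay at 12 of 116 (10.3%), and of the 51 with a paired end 23.5%. Of these 12, 10 had a peak in both libraries, 2 in the control alone and 0 in the knockdown alone. The readthrough loci DNAJC25-GNG10 and HSPE1-MOB4 are 2 of the 10 and repeat the peaks of DNAJC25 and HSPE1. PSPH/CCT6A, the second a subunit of the cytosolic chaperonin, had folds of 4.61 and 3.58, and ATPSCKMT/CCT5, another subunit, 3.20 and 3.05. TBCCD1/DNAJB11 had 3.35 and 3.36. TCP1, a further subunit of the same chaperonin, faces MRPL18, a protein of the mitochondrial ribosome, and its peak was listed in the control alone, with a fold of 4.37 and a −log10 q of 3.32. Chaperonin genes thus stood in both groups.

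DNA repair and replication genes lay at paired-end peaks in 14 of 149 cases (9.40%), and in 18.9% of the 74 with a paired end. Of these, 7 had a peak in both libraries, 3 in the control alone and 4 in the knockdown alone. FANCB/MOSPD2, another Fanconi gene, had folds of 4.83 and 3.71, PMS2/AIMP2 3.74 and 3.67, and VPS35/ORC6, with a subunit of the origin recognition complex, 4.44 and 4.0. XPC, a damage sensor of nucleotide excision repair that faces LSM3, was listed in the control alone (3.8). ORMDL1/PMS1 (3.75), TMEM167A/XRCC4 (3.42) and RAD1/BRIX1 (3.20) were listed in the knockdown alone. So of the mismatch repair genes named here PMS2 had a peak in both libraries, and PMS1 in the knockdown alone.

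Cell cycle, mitosis and centrosome genes numbered 25 of 297 (8.42%), with 22.4% of the 107 with a paired end, 11 in both libraries, 4 in the control alone and 10 in the knockdown alone. KIF18A, a mitotic kinesin that faces METTL15, had folds of 3.55 and 4.58, and DCAF16/NCAPG, with a condensin subunit, 4.58 and 3.57. CEP290/TMTC3 had 4.15 and 3.92. CEP63, of the centrosome, and ANAPC13, of the anaphase-promoting complex, share a promoter with 3.76 and 3.31. NUF2, of the kinetochore, which faces RGS5, was listed in the control alone (4.18). In the knockdown alone were CENPK/PPWD1 (3.65), CMC2/CENPN (3.58), SHC1/CKS1B (3.51) and SASS6/TRMT13 (4.12), where SASS6 builds the cartwheel of the centriole.

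Mitochondrial genes of translation, import and respiration numbered 18 of 250 (7.20%), 10 in both libraries, 5 in the control alone and 3 in the knockdown alone. NDUFAF4/KLHL32, with an assembly factor of respiratory complex I, had folds of 3.99 and 4.24, and MRPL50/ZNF189 3.78 and 3.35. NDUFS1, a core subunit of complex I, and EEF1B2, an exchange factor of translation elongation, were listed in the control alone (4.04), as was KIN/ATP5F1C (3.65). HYCC2/NDUFB3 was listed in the knockdown alone (3.56). Their share of genes with a paired end, 13.3% of 135, was near the 10.4% background.

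Cytosolic ribosome and translation genes numbered 14 of 205 (6.83%), 5 in both libraries, 3 in the control alone and 6 in the knockdown alone. One of the 5 is RPS6KA5, a protein kinase gene taken by its symbol prefix. Of the 85 genes of this list with a paired end, 16.5% had a paired-end peak, against 10.4%. SERP1/EIF2A had folds of 4.04 and 4.58 and RPS29/LRR1 3.5 and 3.81. RPL36AL/MGAT2 (3.85) and ABCE1/ANAPC10 (4.56), where ABCE1 recycles ribosomes, were listed in the knockdown alone. Splicing and RNA processing genes numbered 21 of 278 (7.55%), 12 in both libraries, 4 in the control alone and 5 in the knockdown alone. Of the 131 with a paired end, 15.3% had one, against the same 10.4%. CBX5/HNRNPA1, heterochromatin protein HP1 alpha beside a splicing regulator, had 3.95 and 3.97. DROSHA, the nuclease that starts microRNA processing, faces C5orf22 and was listed in the control alone (4.09).

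Histone modifier and chromatin genes numbered 17 of 360 (4.72%), 6 in both libraries, 1 in the control alone and 10 in the knockdown alone, against 227 of all 621 member genes in the knockdown alone. Of the 10, 7 were histone genes. H2BC4/H2AC6 had a knockdown fold of 3.30 over 903 bp, H2BC11/H2AC11 3.45 over 530 bp, H2BC12/H2AC12 3.18 over 879 bp and LOC105369669/H4C16 2.87 over 946 bp. Their −log10 q-values were 1.70, 2.36, 1.71 and 1.35, and no control peak was listed at these pairs. The histone genes are near-identical copies, and how reads that match several copies were counted is not given in the sources used here. The other side of the list held MBD4/IFT122, a DNA glycosylase gene beside a cilium gene, with 3.98 and 4.22 in both libraries. With 12.1% of 141 genes with a paired end, the list was near the background.

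Zinc finger transcription factor genes stood at 11 of 609 (1.81%), against 3.11% of all genes. Of the 122 with a paired end, 8.20% had one, near the 10.4% background. ZSCAN32/ZNF174 was listed in the control alone (3.79), and ZNF425/ZNF398 (3.06) and ZNF891/ZNF10 (3.39) in the knockdown alone. Ubiquitin and proteasome genes were at 13 of 434 (3.0%), membrane traffic genes at 32 of 754 (4.24%), a list that takes every numbered TMEM symbol, and cilium genes at 12 of 274 (4.38%, 8 in both libraries). The last list takes symbols by prefix and holds CCDC18, CCDC59 and other members not known as cilium genes. Of the pairs with both genes on the traffic list, ALG2/SEC61B, a glycosylation enzyme beside a translocon subunit, was listed in the knockdown alone (3.73). The shares of the ubiquitin, traffic and cilium lists lie near the 3.11% of all genes. Of their genes with a paired end, 8.97% of 145, 12.4% of 258 and 12.1% of 99 had a peak, near the 10.4% background.

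Of 162 genes of interferon signalling, antigen presentation and chemokines, 6 (3.70%) had a paired-end peak, near the 3.11% of all genes. Of the 33 with a paired end, 15.2% (5 genes) had one, against 10.4%. ERAP1 and LNPEP, which trim peptides for presentation on MHC class I, share a promoter with a peak of fold 3.60 in the control and 3.93 in the knockdown, over 1255 and 1196 bp. IFIH1, the cytosolic sensor MDA5, faces GCA and had 3.41 and 3.29. IFIT5/LIPA (3.23) was listed in the control alone, and XPOT/TBK1 (3.73), a tandem pair, in the knockdown alone. Among 24 luminal prostate and androgen response genes 1, ELL2, had a paired-end peak, shared with CAST, with 3.18 and 3.27.

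The promoter letters of the pairs were read from the same RefSeq table, 1 promoter per divergent pair, for 197 pairs with a peak, 882 without one, 929 single starts with a peak and all 15812 promoters. Motifs were searched on both strands as exact letters over 300 bases. The ETS letters CCGGAAG stood in 24.9% of divergent pairs with a peak, 26.5% of those without, 20.3% of single starts with a peak and 14.1% of all promoters. The TATA box, TATAAA, was at 3.55%, 4.08%, 4.84% and 9.75% in the same order. On both motifs, divergent pairs with and without a peak were close to each other and apart from all promoters. The CCAAT box did not follow this order. It stood in 49.2% (42.1 to 56.4) of divergent pairs with a peak, 36.7% (33.5 to 40.0) of those without, 47.0% of single starts with a peak and 36.4% of all promoters. The 10464 single starts with no peak had it in 35.2%, the ETS letters in 10.5% and the TATA box in 11.6%. The CCAAT box was thus more frequent with a peak at divergent pairs and at single starts alike. The NRF1 letters GCATGCGC were at 10.7%, 6.58%, 5.49% and 4.28%, the ZBTB33 letters TCTCGCG at 10.7%, 7.71%, 8.72% and 4.88%, and the SP/KLF letters GGGCGG at 71.1%, 69.0%, 74.4% and 58.3%. The AP-1 letters TGACTCA were rare, at 0.508%, 2.95%, 1.94% and 3.62%. The YY1 letters AAGATGGC stood at 5.58%, 7.48%, 4.31% and 3.86%, the ZNF143 letters ACTACAA at 4.57%, 5.9%, 3.88% and 3.14%, the CRE TGACGTCA at 3.05%, 2.72%, 5.27% and 2.56%, and the E-box CACGTG at 11.7%, 11.6%, 11.3% and 8.82%. Median G and C content was 63.0%, 65.0%, 65.0% and 62.7%, and the ratio of observed to expected CpG 0.867, 0.855, 0.868 and 0.762.

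**Figure D5:**
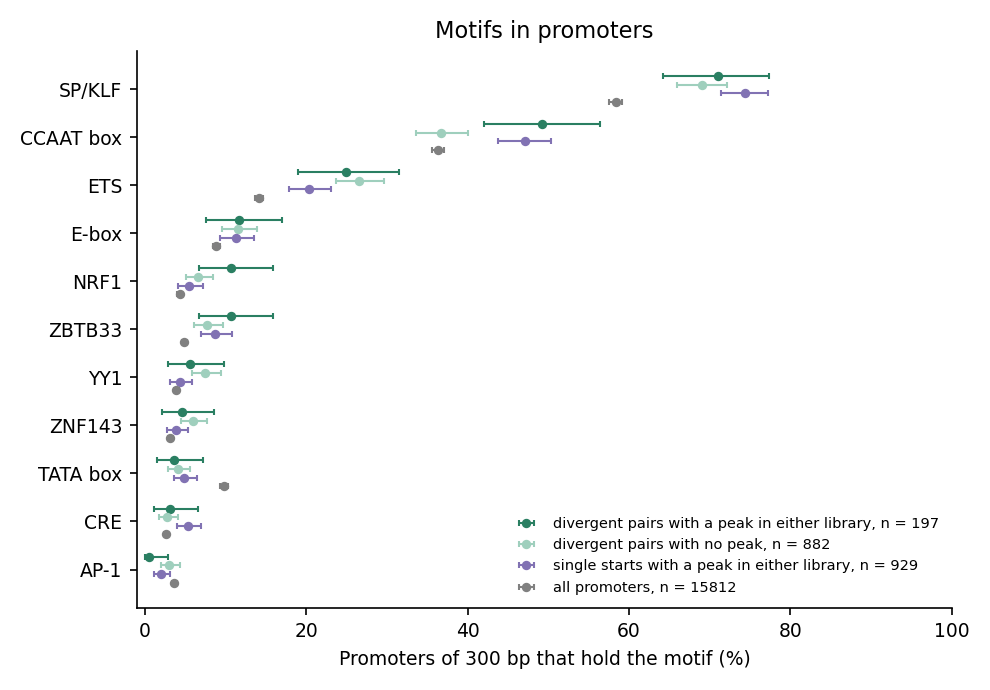
Share of promoters (%, horizontal axis) that hold each motif on either strand, for divergent pairs with and without a peak, single starts with a peak and all promoters, with exact 95% intervals. The CCAAT box is at 49.2% of divergent pairs with a peak and 36.7% of those without, and the TATA box is more frequent over all promoters (9.75%) than in the 3 other sets.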

How the data were processed

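Broad ATAC-seq peaks were deposited as 1 list for each library. The submitters' processing notes name, on GRCh38, ChIPseeker 1.22.1, MACS2, Picard 1.101, SAMtools 1.9, Bowtie2 2.2.9 and CASAVA 1.8.2. What is not given in the sources used here is the role of each tool, the Tn5 shift, duplicate removal and the calling options, which can change the number, width and place of peaks. The values deposited per peak are a fold enrichment (a ratio over local background), a −log10 p-value, a −log10 q-value and a score, and the deposited score is the −log10 q-value times 10, truncated. Read depth is unknown, and the number of peaks limits the precision.

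Gene ends came from a RefSeq gene table and strands and promoters from a RefSeq promoter table, both GRCh38.p14. Distances ran from the peak edge to the nearer end of a gene. Coordinates are 1-based. Shares have exact Clopper-Pearson 95% intervals, and no test was made between libraries. Groups follow the condition label. The members, lists and rules were chosen with earlier results of these data known. Named pairs were the 10 strongest divergent pairs in both libraries, the 8 strongest in either library alone, pairs with both genes on 1 list, peaks near 3 or more genes, and the 3 widest peaks and 3 largest ratios in each direction. Other pairs named under a gene list were picked as examples after their values were seen. Scripts used scipy 1.17.1, matplotlib 3.10.9, pandas 2.3.3 and numpy 2.4.6 under Python 3.11.15 and were tested on simulated data. Alternatives changed the q limit, the distance, the overlap, gene copies and the chromosomes. Some results are not reported here.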

Additional observations from a re-analysis of the deposited data

How the results depend on the processing

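Of 100 recomputed values, 72 stayed within their interval or 1.5 times the count, and 28 moved. The 72 include the counts of pairs in 1 library alone under the 50% overlap, which could not change. With a −log10 q of at least 2, 118 control and 165 knockdown paired-end peaks remained, with median folds of 3.90 and 3.74. There were then 94 pairs in both libraries and 36 in the control alone, and 7.12% and 10.6% of divergent pairs of the annotation had a peak. With at least 5, 19 and 23 peaks remained, with folds of 4.71 and 4.45, widths of 506 and 546 bp and overlaps of 57.9% and 47.8%, lower because both lists were limited. Pairs then numbered 13 in both libraries, 8 in the control alone and 12 in the knockdown alone, and 1.37% of divergent pairs had a peak in each library. These limits remove peaks by construction. Asking for 50% of each peak to be covered gave an overlap of 56.7% and 44.8%. A distance of 3 kb gave a divergent share of 74.1% and 72% and 92 control-only pairs. Without chromosomes 17, 19 and 22, an alternative added after seeing the data, 13.7% and 17.6% of divergent pairs had a peak. The order of the median widths of the libraries turned, from 412 and 418 bp to 423 and 420 bp at a distance of 500 bp and to 423 and 415 bp without copies and LOC symbols. With the 50% overlap, 118 pairs were in both libraries. Pairs whose 2 peaks fell short of it were left out of all counts. The counts in 1 library alone therefore stayed at 59 and 124 by construction. No paired analysis was possible because there is 1 library per group. Read depth is unknown, and a pair listed in 1 library alone was not tested for a difference.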

Other observations

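Paired-end peaks were spread unevenly over chromosomes. Chromosome 3 held 25 control and 24 knockdown peaks, and chromosome 1 held 20 and 32. Chromosome 19, which is dense in genes, held 0 and 3, and chromosome 22 held 0 in both. A peak lay at 26.5% (control) and 29.4% (knockdown) of the 68 divergent pairs of chromosome 3, against 12.7% and 12.6% of single starts there. On chromosome 4 these shares were 29.4% and 35.3% of 34 divergent pairs, against 9.65% and 10.8% of single starts. On chromosome 7 they were 20.5% and 25.6% of 39, against 10.7% and 10.2%. Of 48 divergent pairs on chromosome 5, 8 had a control peak (16.7%) and 16 a knockdown peak (33.3%), and single starts there 11.3% and 12.3%. Chromosome 17 had a peak at 1 of 76 divergent pairs in each library, and at 0.787% and 0.591% of its single starts. Not every chromosome had the higher share at divergent pairs. On chromosome 15 the control had a peak at 0 of 41 divergent pairs (exact upper bound 8.60%) and 2.84% of single starts. The knockdown had one at 5 of these 41 (12.2%), against 2.84% of single starts. On chromosome 20 both libraries had one at 0 of 24 (upper bound 14.2%), against 1.43% and 2.5% of single starts. The bounds of these 0 counts lie above the shares of single starts, so no lower share is shown.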
